A study of Mus musculus with 24 samples.

Results

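The transcripts described here encode the interleukin-1 (IL-1) family cytokines and the inflammasome proteins that process them in mouse bone marrow-derived macrophages (BMDMs) and dendritic cells (BMDCs). The genes were chosen by symbol: Il1a, Il1b, Il1rn, Il18, Il18bp, Casp1, Casp4, Nlrp3, Aim2 and Gsdmd. All 10 were present among the 54532 genes measured, and the rule that picked them used no measured value, although earlier results of these data were known when it was set. RNA-sequencing of polyA RNA gave 24 libraries in 8 groups of 3, formed from both cultures, both genotype labels and both treatments. The question put to these cells was whether their response to an agonist of STING, the DNA-sensing adaptor encoded by Tmem173, changes when Tmem173 is deleted in myeloid cells. All mice carried floxed Tmem173 alleles (Tmem173 fl/fl). The WT label stands for floxed mice without Cre. The CRE label stands for floxed mice with a tamoxifen-inducible Cre driven by Lyz2, a promoter active in macrophages and neutrophils and less so in dendritic cells. The study's methods describe tamoxifen for both genotypes of mice, without stating it for the donors of these cultures. BMDMs were cultured in L929 cell supernatant, a source of the growth factor M-CSF, and BMDCs in GM-CSF plus IL-4. The groups labelled CT were controls and those labelled DX received DMXAA, a small molecule that binds mouse STING, at 40 µM per the series text. The study's methods give that dose in µg/mL, so the molar concentration is uncertain. The exposure time, the age of the donors and what a library number stands for are not stated for the sequenced cultures. The study gives an exposure time for other DMXAA experiments and ages of mice at tamoxifen, without tying them to these libraries. As the meaning of the numbers is unknown, the p-values measure the spread between these libraries, which may be technical.

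IL-1 alpha and IL-1 beta are agonists of the same receptor, IL-1 receptor type 1, and the product of Il1rn blocks that receptor. IL-18 acts through its own receptor and is held back by the secreted IL-18 binding protein. Inflammasomes are multiprotein platforms, assembled by sensors such as NLRP3 and AIM2, that activate caspase-1, which cleaves the IL-1 beta and IL-18 precursors and the pore-forming protein gasdermin D, steps on the protein that RNA levels do not report.

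The transcripts lie on 6 chromosomes in GRCm38 coordinates. The neighbouring agonist genes Il1a (chromosome 2, 129299610 to 129309972, minus strand) and Il1b (chromosome 2, 129364570 to 129371139, minus strand) are 54597 bases apart, with 0 protein-coding genes between them. Il1rn (chromosome 2, 24336853 to 24351494, plus strand) is farther away on the same chromosome. Casp1 (chromosome 9, 5298517 to 5307265) and Casp4 (chromosome 9, 5308828 to 5336783) both lie on the plus strand and are separated by 1562 bases. Il18 (chromosome 9, 50554827 to 50581840, plus strand), Il18bp (chromosome 7, 102014885 to 102018690, minus strand), Nlrp3 (chromosome 11, 59541568 to 59566956, plus strand), Aim2 (chromosome 1, 173350879 to 173466040, plus strand) and Gsdmd (chromosome 15, 75862327 to 75867408, plus strand) stand apart from each other. Il18bp overlaps Numa1, which is transcribed from the opposite strand and held 49271 counts over all libraries. Whether counting used the strand is not given in the sources used here, so reads of both genes cannot be told apart where they overlap, and the same holds for Il1a with Gm14023, Il1b with Il1bos, Il18 with Bco2 and Tex12, and Aim2 with Cadm3.

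Promoter sequences were shown for the genes whose RefSeq start windows held one of the 4 motifs searched, namely Casp4, Il1rn and Il18bp. These include the gene with the highest DMXAA fold in the WT label of each culture. In CRE-labelled BMDMs the highest was that of Il18 (log2 fold change 2.93), whose window held no match. The window was the 250 bases before each RefSeq start in GRCm38.p6, written 5′ to 3′ on the gene's strand, and capitals mark the match. The kB motif (GGG and TTTCC with 2 bases of any kind between them, on either strand) was found in 1.41% of 32851 windows, and among 9 members with windows it was found in Casp4 and Il1rn. In Casp4 (chr9:5308599-5308848, plus strand) it occurred on both strands, at bases 93 to 84 and 14 to 5 before the start, and in the third of the Il1rn windows (chr2:24345121-24345370, plus strand) at bases 51 to 42. The CEBP motif (TTGCNNAA on either strand, 9.56% of windows) was found in Il18bp (chr7:102018233-102018482, minus strand) at bases 49 to 42.
Casp4: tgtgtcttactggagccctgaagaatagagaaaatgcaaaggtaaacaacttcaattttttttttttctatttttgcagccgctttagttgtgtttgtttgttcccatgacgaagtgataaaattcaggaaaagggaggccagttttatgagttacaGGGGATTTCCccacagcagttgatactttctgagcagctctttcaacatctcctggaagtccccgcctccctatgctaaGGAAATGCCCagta
Il1rn: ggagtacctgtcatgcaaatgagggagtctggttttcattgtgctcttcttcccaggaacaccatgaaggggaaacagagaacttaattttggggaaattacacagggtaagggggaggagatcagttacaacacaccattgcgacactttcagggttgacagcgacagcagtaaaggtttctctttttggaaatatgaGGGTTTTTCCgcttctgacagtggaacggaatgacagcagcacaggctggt
Il18bp: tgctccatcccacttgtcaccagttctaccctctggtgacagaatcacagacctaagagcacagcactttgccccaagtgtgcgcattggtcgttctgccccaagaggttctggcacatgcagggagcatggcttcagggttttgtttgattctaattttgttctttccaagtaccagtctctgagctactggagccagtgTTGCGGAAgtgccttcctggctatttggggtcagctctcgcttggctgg
The interferon-stimulated response element (GAAA repeated after 2 bases of any kind, 2.98% of windows) and the gamma-activated site (TTCNNNGAA, 7.02% of windows), both searched on either strand, matched in 0 of the 13 windows of these genes. A match describes letters and not a bound site, and the windows hold none of the introns or distal elements.

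Before the results, some libraries need naming. The 4 BMDM libraries numbered 3 had few macrophage transcripts, with a summed level of 9 macrophage markers of 42.2 to 70.6 CPM (counts scaled to library size) against 10359 to 22140 in the BMDM libraries numbered 1 and 2. Their 7 leukocyte markers summed to 0.556 to 2.08 CPM, whereas their 7 fibroblast markers summed to 12370 to 18782 CPM. Their values are given apart, and all BMDM tests used the 8 libraries numbered 1 and 2. BMDCs expressed the dendritic cell markers (sum of 8 markers 5946 to 9973 CPM), although Flt3 was at most 1.45 FPKM (fragments scaled to gene length and library size), and macrophage markers were also present (2046 to 8955 CPM). Tmem173 itself was at 8.76 to 55.3 FPKM in the 24 libraries and never near 0, so it does not check the genotype labels. Total counts ranged from 15657347 to 18912887 per library.

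In BMDCs, some libraries with different labels resembled each other more than libraries of the same group did. The chi-square distance per gene, which is about 1 for libraries that differ by sampling alone, was 3.20 (control) and 3.91 (DMXAA) between the WT-labelled library numbered 3 and the CRE-labelled library numbered 1. It was 4.50 and 4.04 between WT number 2 and CRE number 3. Within a BMDC group it was 13.0 to 142. The highest distances were those of CRE number 2, whose macrophage marker sum was 2168 CPM in control and 2046 CPM under DMXAA, against 5961 to 8955 in the other BMDC libraries, and whose neutrophil marker sum was 406 and 179 CPM, against 11.4 to 76.3. Single markers in CRE number 2 did not all follow these sums. Lyz2 was at 927 FPKM in control and 1040 FPKM under DMXAA, below every other BMDC library. Cd68, another macrophage marker, was at 248 and 320 FPKM, the highest of each treatment. Among neutrophil markers S100a8 was high (202 and 109 FPKM), but Ly6g was the lowest of each treatment (0.337 and 0 FPKM). The part of the resemblances between labels in the results was not tested.

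IL-1 agonists were the clearest difference between the cultures. Il1b, whose product drives fever and neutrophil recruitment, was detected in every BMDC library. In WT-labelled BMDCs its FPKM was 6.22, 9.24 and 11.6 in control and 74.9, 69.0 and 45.9 under DMXAA. In CRE-labelled BMDCs it was 12.9, 4.25 and 10.1 in control and 43.8, 13.6 and 69.3 under DMXAA. Control and DMXAA libraries did not overlap within either label, and the low values were those of CRE number 2. In BMDMs numbered 1 and 2, Il1b held 1 to 16 counts per library and 0.0264 to 0.742 FPKM, below the filter for testing. Il1a, whose product is active without cleavage by caspase-1, followed the same division. It was at 16.4, 14.0 and 11.6 FPKM in WT control BMDCs and at 105, 113 and 62.6 FPKM under DMXAA. In CRE-labelled BMDCs it was at 10.3, 22.7 and 16.1 FPKM in control and at 64.9, 47.4 and 103 FPKM under DMXAA, again without overlap. In BMDMs numbered 1 and 2 it held 1 to 44 counts and at most 1.54 FPKM, reached in WT number 2 under DMXAA.

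**Figure D1:**
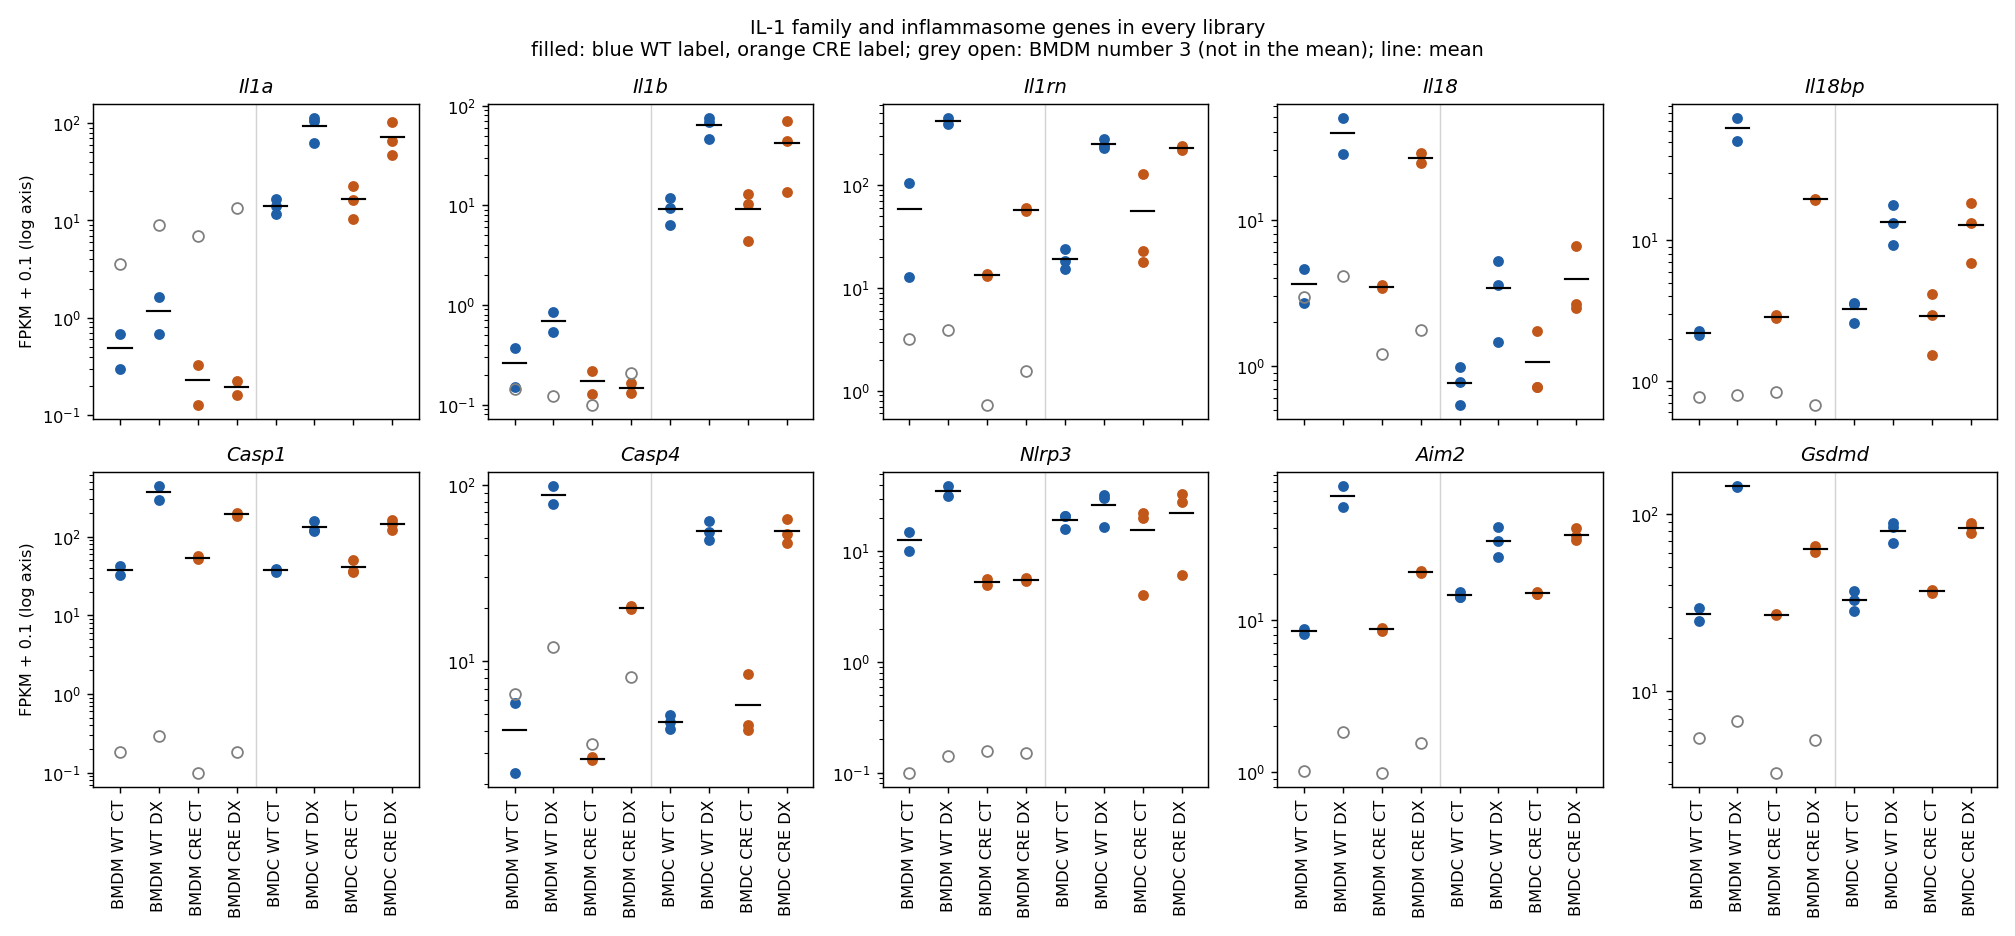
Level of each of the 10 genes in FPKM + 0.1 (log axis) in every library of the 8 groups. Filled points are libraries (blue, WT label; orange, CRE label), black lines are group means, and grey open circles are the BMDM libraries numbered 3, which are left out of the means. Il1a and Il1b sit near the floor in BMDMs numbered 1 and 2 and rise in BMDCs under DMXAA, whereas Casp1, Casp4, Aim2 and Gsdmd are highest in DMXAA-treated WT-labelled BMDMs.

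Il1rn, the receptor antagonist, was expressed in both cultures. In WT-labelled BMDMs numbered 1 and 2 it was at 12.5 and 104 FPKM in control and at 394 and 450 FPKM under DMXAA. In CRE-labelled BMDMs it was at 13.6 and 12.9 FPKM in control and at 55.7 and 59.5 FPKM under DMXAA. The WT control library numbered 2 stood apart from the other 3 BMDM controls, and it also had the highest fibroblast marker sum of these 8 libraries (419 CPM, and 407 CPM in WT number 2 under DMXAA, against 27.3 to 58.5 in the other 6); the part of those cells was not tested. In WT-labelled BMDCs Il1rn was at 15.0, 18.0 and 23.8 FPKM in control and at 284, 227 and 241 FPKM under DMXAA. In CRE-labelled BMDCs it was at 22.7, 128 and 17.9 FPKM in control and at 238, 234 and 217 FPKM under DMXAA. The value of 128 FPKM belonged to CRE number 2, the BMDC control with the lowest macrophage marker sum, and DMXAA libraries were all above controls. Set against the summed agonists, Il1rn was 50.2 to 602 times Il1a plus Il1b in BMDMs numbered 1 and 2. In BMDC controls the ratio was 0.664 to 1.02 with the exception of CRE number 2 at 4.77, and in BMDCs under DMXAA it was 1.25 to 3.84.

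**Figure D2:**
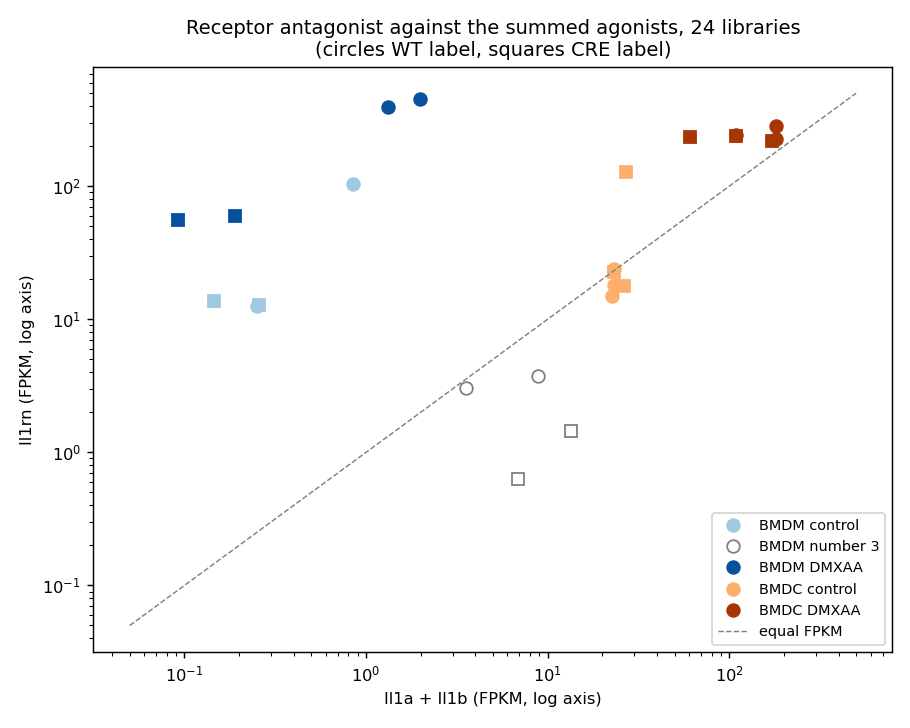
Il1rn against the sum of Il1a and Il1b in FPKM (both axes logarithmic) in the 24 libraries; circles are the WT label, squares the CRE label, and the dashed line marks equal levels. BMDMs numbered 1 and 2 lie far above the line, BMDC controls near it except for 1 library at 128 FPKM of Il1rn, and all 6 DMXAA-treated BMDC libraries above it.

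IL-18 showed the opposite division. Il18 was at 4.46 and 2.57 FPKM in WT-labelled BMDM controls and at 49.4 and 28.1 FPKM under DMXAA, and in the CRE label at 3.31 and 3.47 FPKM against 24.3 and 28.4 FPKM. In BMDCs the 6 control libraries held 0.445 to 1.64 FPKM (9 to 32 counts) and the 6 DMXAA libraries 1.35 to 6.46 FPKM (20 to 101 counts), so that control CRE number 2 overlapped with DMXAA WT number 1. Under DMXAA, the BMDM libraries numbered 1 and 2 were all above every BMDC library. Il18bp, which encodes the decoy that binds IL-18, was at 2.17 and 2.02 FPKM in WT-labelled BMDM controls and at 73.9 and 50.6 FPKM under DMXAA. In CRE-labelled BMDMs it was at 2.83 and 2.70 FPKM in control and at 19.7 and 19.3 FPKM under DMXAA. The DMXAA libraries of the labels did not overlap. In BMDCs Il18bp was at 1.44 to 4.05 FPKM in control and at 6.80 to 18.3 FPKM under DMXAA, without overlap. Il18bp was 0.486 to 1.80 times Il18 in BMDMs numbered 1 and 2, and 0.873 to 7.84 times in BMDCs.

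The caspases were present at rest in both cultures. Casp1, the protease of the canonical inflammasome, was at 41.7 and 32.4 FPKM in WT-labelled BMDM controls and at 439 and 290 FPKM under DMXAA. In CRE-labelled BMDMs it was at 56.1 and 52.2 FPKM in control and at 183 and 201 FPKM under DMXAA. In BMDCs Casp1 was at 35.7 to 50.8 FPKM in control and at 118 to 162 FPKM under DMXAA over both labels, without overlap. Casp4, which encodes mouse caspase-11, the intracellular sensor of lipopolysaccharide in the non-canonical pathway, was low at rest. It was at 2.23 and 5.69 FPKM in WT-labelled BMDM controls and at 98.7 and 77.5 FPKM under DMXAA. In CRE-labelled BMDMs it was at 2.65 and 2.74 FPKM in control and at 19.6 and 20.4 FPKM under DMXAA. In BMDCs it was at 4.0 to 8.37 FPKM in control and at 47.0 to 63.9 FPKM under DMXAA, and the labels overlapped in both treatments. Gsdmd, the pore-forming substrate, was at 24.9 and 29.5 FPKM in WT-labelled BMDM controls and at 144 and 142 FPKM under DMXAA, against 26.8 and 27.0 FPKM and 60.9 and 66.2 FPKM in the CRE label. In BMDCs it was at 28.2 to 37.0 FPKM in control and at 68.2 to 89.0 FPKM under DMXAA.

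The sensors behaved unlike each other. Aim2, a sensor of cytosolic double-stranded DNA, was at 7.93 and 8.63 FPKM in WT-labelled BMDM controls and at 75.5 and 54.9 FPKM under DMXAA, and in the CRE label at 8.32 and 8.75 FPKM against 20.9 and 20.1 FPKM. In BMDCs Aim2 was at 14.0 to 15.1 FPKM in the 6 controls and at 25.6 to 40.6 FPKM under DMXAA. Nlrp3, a sensor of ion flux and membrane damage, was at 10.1 and 14.9 FPKM in WT-labelled BMDM controls and at 31.8 and 38.8 FPKM under DMXAA. In CRE-labelled BMDMs it was at 4.89 and 5.49 FPKM in control and at 5.27 and 5.63 FPKM under DMXAA. These overlapped and lay below the WT-labelled BMDM libraries numbered 1 and 2. Scaled to total counts, Nlrp3 in CRE-labelled BMDMs was at 21.0 and 23.5 CPM in control. Under DMXAA it was lower, at 19.0 and 20.2 CPM, without overlap. In WT-labelled BMDCs it was at 15.8, 20.8 and 20.6 FPKM in control and at 16.7, 30.5 and 32.0 FPKM under DMXAA. In CRE-labelled BMDCs it was at 22.1, 3.97 and 19.9 FPKM in control and at 33.1, 5.96 and 27.9 FPKM under DMXAA. Both values below 6 FPKM were those of CRE number 2.

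Ordered by group mean FPKM over the libraries tested, DMXAA-treated WT-labelled BMDMs ranked highest for 8 of the 10 genes, and DMXAA-treated WT-labelled BMDCs for Il1a and Il1b. For Il1rn, Il18bp, Casp1, Casp4, Aim2 and Gsdmd that first place did not overlap with the next group. For Il18 it overlapped with DMXAA-treated CRE-labelled BMDMs, for Nlrp3 with DMXAA-treated WT-labelled BMDCs, and for Il1a and Il1b with DMXAA-treated CRE-labelled BMDCs. The WT and CRE groups of BMDCs at the same treatment overlapped for all 10 genes. The share of all genes with such ranks or overlaps was not computed, so these counts describe the 10 genes and set them apart from no others.

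The response of BMDCs to DMXAA was tested with the quasi-likelihood test of edgeR on counts, two-sided, adjusted by the Benjamini-Hochberg method over all genes tested, and genes with an adjusted p under 0.05 were called. In the WT label 9 of the 10 genes were called higher, where 32.2% of 12126 genes tested were called, 17.0% higher and 15.2% lower. The largest rises were those of Il1rn (log2 fold change 3.70 ± 0.64 SE, n = 3 per group, adjusted p from edgeR 0.0012) and Casp4 (3.60 ± 0.29, adjusted p from edgeR 5.38e-06). Il1b rose by 2.78 ± 0.56 and Il1a by 2.71 ± 0.36 on the log2 scale, that is 6.85-fold and 6.56-fold. Il18 rose by 2.28 ± 0.63, Il18bp by 2.07 ± 0.43, Casp1 by 1.80 ± 0.19, Gsdmd by 1.29 ± 0.16 and Aim2 by 1.18 ± 0.17. Nlrp3 did not pass (0.45 ± 0.64, adjusted p from edgeR 0.656). Library numbers paired control with DMXAA within a BMDC label. With that pairing as a block Nlrp3 was called in both labels, where 48.7% (WT) and 42.7% (CRE) of all genes were called. Its values were 0.40 ± 0.13 (adjusted p from edgeR 0.0276) in WT and 0.53 ± 0.13 (adjusted p from edgeR 0.00926) in CRE. Its FPKM was higher under DMXAA in 6 of 6 numbered pairs, by 1.05 to 1.55 times. Scaled to total counts, however, Nlrp3 fell in WT number 1, from 66.2 to 53.9 CPM. The call of Il18 was lost without WT control number 1, WT control number 2 or WT DMXAA number 2, with adjusted p from edgeR of 0.0501, 0.0671 and 0.067. Il18 had reached 1 FPKM, the level needed for testing, in 1 of the 6 BMDC controls and in all 6 DMXAA libraries, so it entered the test through the treated libraries.

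CRE-labelled BMDCs gave the same count, 9 of 10 called higher, where 25.4% of genes were called, 14.0% higher and 11.4% lower. The log2 values below are given side by side with those of the WT label, which come from other libraries of the same fit. Casp4 rose by 3.28 ± 0.28 on the log2 scale, Il1b by 2.19 ± 0.55, Il18bp by 2.17 ± 0.43 and Il1a by 2.11 ± 0.35. Il1rn rose by 2.01 ± 0.60, Il18 by 1.96 ± 0.61, Casp1 by 1.77 ± 0.19, Aim2 by 1.26 ± 0.17 and Gsdmd by 1.17 ± 0.16, and Nlrp3 did not pass (0.52 ± 0.64, adjusted p from edgeR 0.624). The call of Il1rn was lost without any 1 of the control and DMXAA libraries numbered 1 and 3 (adjusted p from edgeR 0.0578 to 0.0935), that of Il18 without control number 1, control number 3 or DMXAA number 3 (0.123 to 0.166), and that of Il1b without DMXAA number 3 (1.63 ± 0.53, adjusted p from edgeR 0.0555). Without CRE control number 2 the rise of Il1rn was 3.47 and that of Il18 2.58, and without DMXAA number 3 that of Il18 was 1.33.

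**Figure D3:**
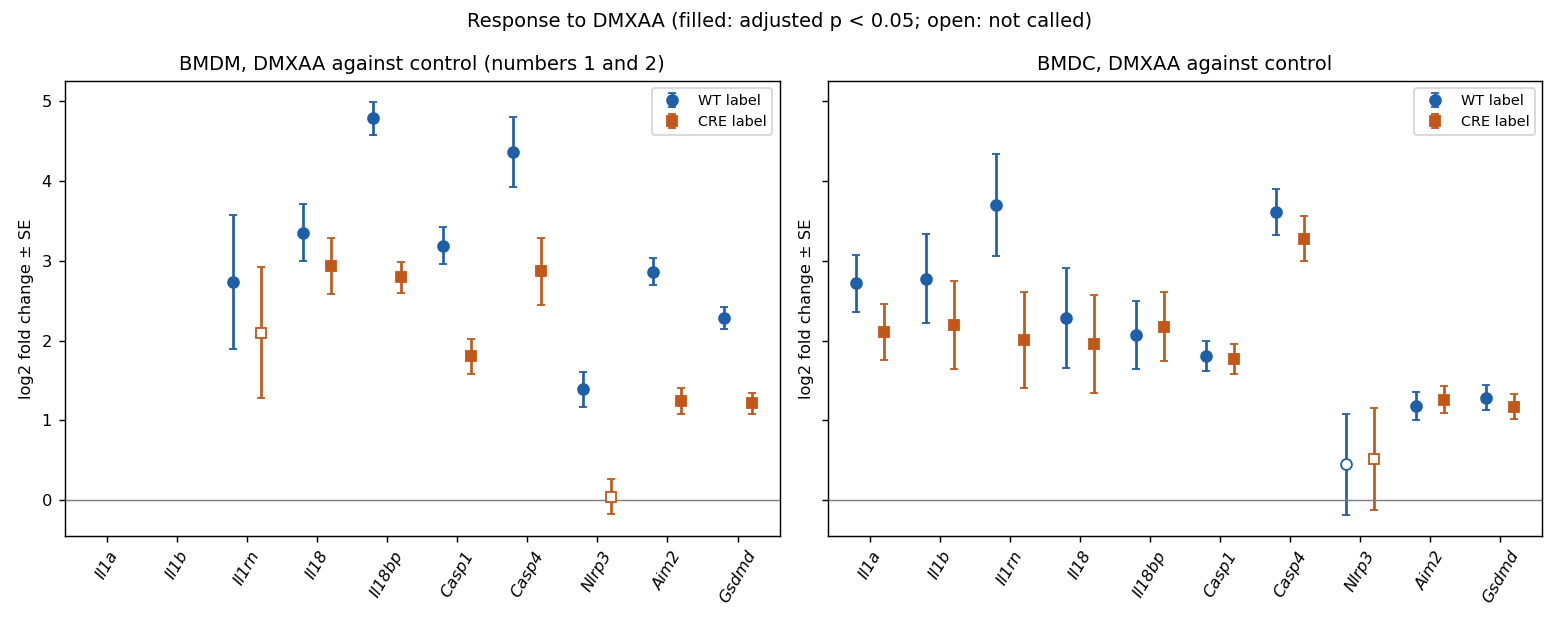
Log2 fold change ± SE of DMXAA over control for each gene in BMDMs numbered 1 and 2 (left) and BMDCs (right), for the WT label (circles) and the CRE label (squares). Filled symbols were called at an adjusted p under 0.05 and open symbols were not; Il1a and Il1b were not tested in BMDMs. In BMDMs the CRE-labelled points lie below the WT-labelled ones for all 8 genes tested, whereas in BMDCs the error bars of the labels overlap for 9 of 10 genes, the exception being Il1rn.

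The genotype labels were then compared in BMDCs. Under DMXAA, in control and in the difference of the responses, 0 of the 10 genes were called, and 0% of all 12126 genes were called by edgeR in each of the 3 comparisons (108, 99 and 60 genes at an unadjusted p under 0.05). DESeq2 called 0 of 9 members in each, Il1rn having no adjusted p. Under DMXAA the log2 differences of CRE minus WT ran from -0.57 ± 0.52 for Il1b to 0.19 ± 0.58 for Il18. The value for Gsdmd was 0.06 ± 0.15 and that for Casp1 0.12 ± 0.18. The errors of Il1b, Il1rn, Il18 and Nlrp3 were 0.52 to 0.63, so that differences well above 1 SE could go uncalled in these genes. In control the largest value was that of Il1rn (1.58 ± 0.59, unadjusted p from edgeR 0.0213), which rests on the 128 FPKM of CRE number 2. These comparisons hold the close WT-labelled and CRE-labelled pairs given above. Leaving out any 1 of the 12 libraries gave 0 calls among the 10 genes, and leaving out both pairs would leave 1 library per group and no residual degrees of freedom.

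BMDMs responded with higher folds in the WT label. All 8 genes tested were called higher, where 39.2% of 11569 genes tested were called, 18.4% higher and 20.7% lower. Il18bp rose most, by 4.78 ± 0.21 on the log2 scale (27.5-fold, n = 2 per group, adjusted p from edgeR 2.14e-05). Casp4 rose by 4.36 ± 0.44 (20.5-fold), Il18 by 3.35 ± 0.36 (10.2-fold) and Casp1 by 3.19 ± 0.23 (9.11-fold). Aim2 rose by 2.86 ± 0.17, Il1rn by 2.74 ± 0.84, Gsdmd by 2.28 ± 0.14 and Nlrp3 by 1.39 ± 0.22. The call of Il1rn was lost without either WT DMXAA library (adjusted p from edgeR 0.0904 and 0.0922), and its value was 5.0 without WT control number 2 and 1.91 without WT control number 1. The value of Casp4 was 5.22 without WT control number 2. With the libraries numbered 3 in the fit, edgeR called 0 of 9 genes in this comparison (3 at an unadjusted p under 0.05) and 0% of 12379 genes tested.

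In the CRE label 6 of 8 genes were called higher, where 10% of genes were called, 7.28% higher and 2.72% lower. Il18 rose by 2.93 ± 0.35 on the log2 scale, Casp4 by 2.86 ± 0.42, Il18bp by 2.79 ± 0.19, Casp1 by 1.80 ± 0.22, Aim2 by 1.24 ± 0.17 and Gsdmd by 1.22 ± 0.13. Il1rn (2.10 ± 0.82, adjusted p from edgeR 0.162) and Nlrp3 (0.05 ± 0.22, adjusted p from edgeR 0.918) did not pass. The spread behind these tests was uneven, with a biological coefficient of variation of 35.05% over WT-labelled and 5.194% over CRE-labelled libraries. The chi-square distance per gene between BMDM numbers 1 and 2 was 3.095 (control) and 4.666 (DMXAA) in the CRE label. In the WT label it was 84.4 and 63.1. What these close CRE-labelled libraries stand for is unknown, and the main BMDM tests pooled their spread with that of the WT label. When the spread was estimated from the WT label alone 1 gene, Il18bp, was called, where 1.78% of all genes were. Without CRE control number 1 or CRE control number 2 the count was also 1, Il18bp, where 2.16% and 2.14% of genes were called.

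Under DMXAA, 6 of the 8 genes tested in BMDMs were lower in the CRE label than in the WT label, where 19.2% of genes were called, 9.26% higher and 9.99% lower. Nlrp3 differed most among the 6 on the log2 scale, by -2.65 ± 0.23 (adjusted p from edgeR 0.00139). Casp4 differed by -2.09 ± 0.39, Il18bp by -1.63 ± 0.18 and Aim2 by -1.62 ± 0.17. Gsdmd differed by -1.12 ± 0.13 and Casp1 by -0.87 ± 0.21. Il1rn had the largest value but did not pass (-2.83 ± 0.84, adjusted p from edgeR 0.0599), nor did Il18 (-0.50 ± 0.32, adjusted p from edgeR 0.316). DESeq2 called 7 of 8, where 25.1% of genes were called, with Il1rn at -2.89 (adjusted p from DESeq2 0.0118). With no filter 9 of 10 were called, where 15.4% of genes were. The fit without both WT-labelled libraries numbered 2 left 1 library per WT group. Its spread came from the CRE label alone, so its calls are not given. With the WT-labelled spread, edgeR called 0 of 8 and 0% of all genes (7 of the 8 at an unadjusted p under 0.05, with adjusted p of 0.0677 for Nlrp3 to 0.203 for Casp1 among the 6), and without CRE DMXAA number 1 the count was 3, where 2.73% of genes were called. Il1a and Il1b were under the filter, at 13 and 44 counts of Il1a in WT DMXAA libraries against 2 and 4 in CRE DMXAA libraries, and 16 and 12 counts of Il1b against 1 and 2.

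In BMDM controls 0 of 8 genes were called between the labels by edgeR, where 0.0432% of genes were called, all higher. An unadjusted p under 0.05 was reached by 3 of the 8 (Casp1, Il1rn and Nlrp3) and by 793 of all genes. DESeq2 called 1, Nlrp3, at -1.30 ± 0.25 (adjusted p from DESeq2 9.58e-05), and the edgeR value was -1.30 ± 0.22 (adjusted p 0.254). Without WT control number 1 the count was 3, made up of Il1rn (-3.03), Casp4 (-1.13) and Nlrp3 (-1.57), where 1.86% of genes were called. Without WT control number 2 it was 0, where 0.0346% of genes were called, and the values of Il1rn and Casp4 had the opposite sign, at 0.06 and 0.25. The fit without both WT-labelled libraries numbered 2 left 1 library per WT group, so its calls are not given. The FPKM of Nlrp3 at rest was lower in the CRE label, 4.89 and 5.49 against 10.1 and 14.9 FPKM, without overlap.

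The difference of the 2 BMDM responses was tested as an interaction, and 3 of 8 genes were called, all with a lower response in the CRE label, where 3.66% of genes were called, 1.38% higher and 2.28% lower. These were Il18bp (-1.99 ± 0.26, adjusted p from edgeR 0.02), Aim2 (-1.62 ± 0.23, adjusted p from edgeR 0.0222) and Gsdmd (-1.07 ± 0.18, adjusted p from edgeR 0.0353). Casp4 (-1.49 ± 0.55), Casp1 (-1.38 ± 0.30), Nlrp3 (-1.34 ± 0.31), Il1rn (-0.64 ± 1.11) and Il18 (-0.41 ± 0.47) did not pass. The value of Il1rn was -2.91 (called) without WT control number 2 and 0.18 without WT control number 1, and that of Casp4 was -2.36 (called) without WT control number 2. The count was 0 (5 at an unadjusted p under 0.05) without any 1 of the 4 CRE-labelled libraries or with the WT-labelled spread, where at most 0.0173% of all genes were called. It was 6 without WT control number 2, where 11% of genes were called, and 6 by DESeq2, where 10.3% were. A replicate block added Casp1 and Nlrp3. Numbers paired control with DMXAA in WT-labelled BMDMs (correlation of deviations 0.611) but not in CRE-labelled ones (0.039).

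**Figure D4:**
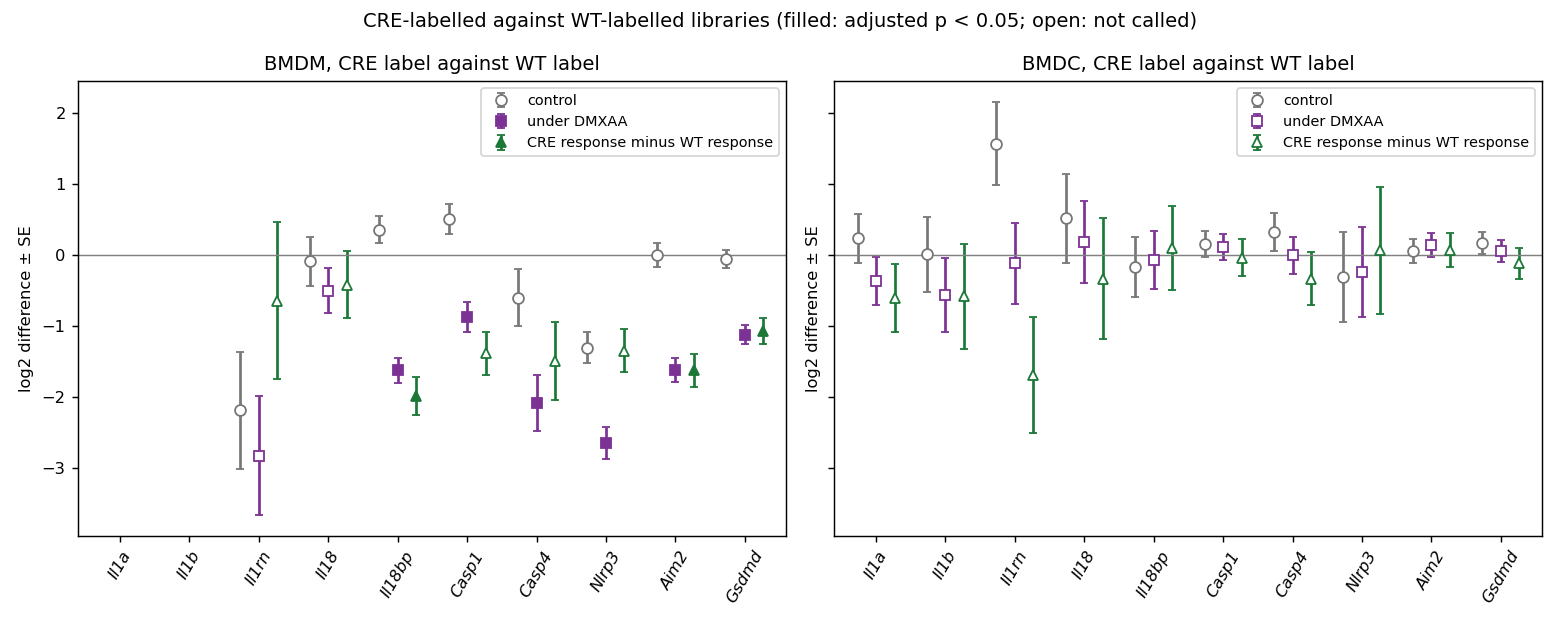
Log2 difference ± SE between the CRE and WT labels in control (circles), under DMXAA (squares) and as the difference of the responses (triangles), in BMDMs numbered 1 and 2 (left) and BMDCs (right). Filled symbols were called at an adjusted p under 0.05; in BMDMs 6 squares and 3 triangles are filled, all below 0, and in BMDCs none is.

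The cultures were compared in the WT label. At rest, Aim2 was higher in BMDCs (0.74 ± 0.18 on the log2 scale, adjusted p from edgeR 0.00635), where 28.5% of 13368 genes were called, 13.1% higher and 15.4% lower. Il1b (5.70 ± 0.84) and Il1a (5.10 ± 0.62) were called too, but they entered this test through the BMDC libraries in which they are high, and their values rest on 2 and 11 counts of Il1b and 8 and 24 counts of Il1a in the BMDM controls. Il18 was lower (-2.44 ± 0.58, adjusted p from edgeR 0.00525). Il1rn did not pass (-1.68 ± 0.71, adjusted p from edgeR 0.09), nor did Nlrp3, Il18bp, Gsdmd, Casp4 and Casp1 (-0.05 ± 0.21 to 0.56 ± 0.62). Without WT control BMDM number 1 the calls of Aim2 and Il18 were lost (adjusted p from edgeR 0.0503 and 0.0629), Il1rn was called (-2.50) and the value of Il1b was 4.99. Without WT control BMDM number 2 the value of Il1rn had the opposite sign (0.58, not called), and those of Il1b and Il1a were 7.34 and 6.10. Since RNA from a culture sums over its cells, fewer cells of a type and less RNA per cell cannot be told apart. The response to DMXAA was lower in BMDCs than in BMDMs for 4 of 10 genes, where 2.61% of genes were called, 0.883% higher and 1.73% lower. These were Il18bp (-2.69 ± 0.59), Aim2 (-1.66 ± 0.25), Casp1 (-1.36 ± 0.30) and Gsdmd (-0.98 ± 0.21). Their adjusted p from edgeR was 0.0232, 0.00241, 0.0238 and 0.0202. The values for Il1a (1.37 ± 0.79), Il1b (1.12 ± 1.19), Il1rn (0.97 ± 1.01), Il18 (-1.04 ± 0.81), Nlrp3 (-0.93 ± 0.87) and Casp4 (-0.74 ± 0.47) did not pass. Leaving out 1 WT-labelled library moved these values. The calls of Il18bp, Casp1 and Gsdmd were each lost in some fits that left a BMDM group with 1 library. The call of Aim2 held in each of these fits. The values ran from -3.0 to -2.46 for Il18bp and from -1.93 to -1.49 for Aim2. Those of Casp1 ran from -1.68 to -1.10 and those of Gsdmd from -1.15 to -0.88.

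In the BMDM libraries numbered 3 the genes divided. Casp1 held 0 to 7 counts, Nlrp3 0 to 5 and Il1b 0 to 5, at or near the limit of 3 counts that a count of 0 allows. Il1a was nevertheless higher than in any other BMDM library, at 3.50 FPKM (WT control), 8.82 FPKM (WT DMXAA), 6.84 FPKM (CRE control) and 13.3 FPKM (CRE DMXAA), or 164 to 643 counts. Casp4 was at 6.43, 11.9, 3.30 and 8.08 FPKM in the same order, Aim2 at 0.914, 1.73, 0.890 and 1.46 FPKM, and Gsdmd at 3.38 to 6.68 FPKM. Il18 was at 1.10 to 4.03 FPKM and Il18bp at 0.581 to 0.733 FPKM, the DMXAA library of the CRE label being below its control for Il18bp. Il1rn was at 0.631 to 3.76 FPKM, below every other library. These libraries have no replicate of their own kind within a group.

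The other genes of the pathway, from a list of 45 symbols of which 40 were in the table, were receptors and signalling proteins, other ligands, and other inflammasome and cell lysis genes. In BMDCs 33 were tested, and DMXAA raised 10 and lowered 6 in the WT label, and raised 10 and lowered 5 in the CRE label, where 17.0% and 15.2% of all genes were called higher and lower in WT and 14.0% and 11.4% in CRE. The leading changes were the same 3 genes in both labels. Il33, an alarmin of the IL-1 family, rose by 3.24 ± 0.49 on the log2 scale in WT and 2.46 ± 0.48 in CRE, and Casp12, which lies 8646 bases beyond Casp4, rose by 3.08 ± 0.51 and 2.74 ± 0.49, although with 0.140 and 0.180 FPKM on average in the controls it entered the test through the treated libraries. Il1rl1, the IL-33 receptor, changed by -2.41 ± 0.49 and -2.01 ± 0.48. Il33 had 2.51 ± 1.28 FPKM (SD, n = 3) in WT control BMDCs and 24.1 ± 9.10 FPKM under DMXAA, and was listed at 0 in BMDM controls numbered 1 and 2. The median log2 fold change of the 33 genes was 0.53 in both labels, against 0.01 and -0.01 over all genes.

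In BMDMs 25 of the 40 were tested, of which DMXAA raised 12 and lowered 3 in the WT label and raised 5 and lowered 0 in the CRE label, where 18.4% and 20.7% of all genes were called higher and lower in WT and 7.28% and 2.72% in CRE. Casp12 (3.19 ± 0.55 on the log2 scale), Myd88, the adaptor of IL-1 and IL-18 receptors (2.52 ± 0.16), and Casp8, the initiator caspase of the extrinsic death pathway (1.88 ± 0.26), led in WT. Casp12 was at 0.187 FPKM on average in WT controls and 1.85 FPKM under DMXAA, through which it entered the test. It was called in CRE as well (3.13 ± 0.70) from 0.0284 to 0.262 FPKM, and is named there after its values were seen. Its interaction was -0.06 and not called, with no SE given because the SE derived from F is unreliable when F is near 0. In CRE, Myd88 rose by 1.12 ± 0.16, Naip2, a sensor of bacterial secretion systems, by 1.07 ± 0.21, and Il1rap, the shared co-receptor, by 0.83 ± 0.19 from 0.850 to 1.54 FPKM. Under DMXAA 0 were higher and 7 lower in the CRE label (9.26% and 9.99% of all genes), led by Casp12 (-2.77 ± 0.54), Mefv, which encodes the sensor pyrin (-2.72 ± 0.59), and Myd88 (-1.43 ± 0.16). Myd88 was the 1 gene of the list called in the BMDM interaction (-1.41 ± 0.22, adjusted p from edgeR 0.0275) and in the difference between cultures (-1.25 ± 0.27, adjusted p from edgeR 0.0213). Its FPKM in BMDMs was 131 ± 26.2 (SD, n = 2) under DMXAA in WT and 47.0 ± 0.242 in CRE, from 21.0 ± 0.232 and 21.3 ± 2.07 in control. The median log2 fold change of the 25 genes was 0.31 in WT and 0.27 in CRE, against -0.08 and -0.01 over all genes, and under DMXAA the median difference of CRE minus WT was -0.04 against 0.01. At rest 8 genes of the list were higher and 4 lower in BMDCs than in BMDMs (13.1% and 15.4% of all genes). Among the 8 were Il1r2, the decoy receptor of IL-1, at 8.74 ± 1.21 FPKM (SD, n = 3) in WT-labelled BMDC controls and 0.199 ± 0.245 (n = 2) in BMDM controls, and Il18rap, a chain of the IL-18 receptor, at 3.88 ± 1.5 and 0.139 ± 0.0422 FPKM, both of which entered the test through the BMDC libraries.

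The genes whose pattern was most like that of a member were sought over the 20 libraries without BMDM number 3, by Pearson's r of log2(FPKM + 1) among 11223 genes, as a description. For Il1b they were Gzmb (r = 0.986), Gm6093 (0.980) and Dhrs1 (0.978). For Il18bp they were Ankle2 (0.977), Tmbim6 (0.971) and Mapk9 (0.971), and for Nlrp3 they were Aoah (0.929), Zfp658 (0.893) and Notch2 (0.892). The libraries share cultures and treatments, so these values carry the differences between them, and the r of Nlrp3 was lower than those of the other 2.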

How the data were processed

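PolyA RNA was sequenced in 24 libraries, 3 in each of 8 groups taken from the labels. The submitters' processing notes name CASAVA 1.8, fastp, HISAT2 2.0.5, featureCounts 1.5.0-p3 and DESeq2 1.20.0 with GRCm38 and mm10. The authors deposited whole-number counts per gene and FPKM values, which divide those counts by gene length and a library size. That library size was not the total count and differed by treatment. Divided by the total count it was 1.03 to 1.16 in BMDC controls and 0.797 to 0.893 in BMDCs under DMXAA. In controls of BMDMs numbered 1 and 2 it was 1.122 and 1.115 (WT) and 1.056 and 1.054 (CRE). In these BMDMs under DMXAA it was 0.687 and 0.771 (WT) and 0.891 and 0.884 (CRE). FPKM ratios of DMXAA to control thus come out higher than ratios per total count. Under DMXAA, FPKM of WT-labelled BMDMs also comes out higher against the CRE label than CPM does. The FPKM levels and ranks given above carry these differences. The table's other columns hold the authors' group means, log2 fold changes and p-values of their own comparisons, which were not used.

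Counts were tested with the quasi-likelihood F-test of edgeR 4.0.16 (R 4.3.3) after TMM scaling, over the genes that reached 1 FPKM in 3 or more BMDC libraries or 2 or more BMDM libraries (2 of 20 between cultures), with Benjamini-Hochberg adjustment and a threshold of 0.05. The SE is the log2 fold change over the square root of F. BMDC fits used 12 libraries, BMDM fits 8 (numbers 1 and 2) and fits between cultures 20. DESeq2 1.42.0, other filters and scalings, replicate blocks and left-out libraries were alternatives, of which the WT-labelled spread and the fits without both libraries numbered 2 of a label were chosen after seeing the data. The steps were tested on simulated data for the WT-labelled DMXAA response only, with the same spread in every group. The unequal spread of the BMDM labels and the comparisons between labels were not simulated. Total counts were 15657347 to 18912887 per library. Library numbers paired control with DMXAA within a BMDC label (correlation of deviations at least 0.417 in WT and 0.553 in CRE). They also did so in WT-labelled BMDMs numbered 1 and 2 (0.611), but not in CRE-labelled BMDMs (0.039), nor across labels (down to -0.514). The main fits did not use the pairing.

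The genes and lists were chosen with earlier results of these data known. All 10 genes were named in every comparison. Of the pathway list up to 3 called genes with the largest absolute change were named, among those with a mean of at least 1 FPKM in the higher group. Likeness was sought for Il1b, Il18bp and Nlrp3, with 3 genes each.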

Additional observations from a re-analysis of the deposited data

Results flagged for a closer look

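By the interaction term of edgeR, the BMDM response to DMXAA was called different between genotype labels for 3 genes (3.66% of all genes tested). These were Il18bp (-1.99 on the log2 scale, CRE response minus WT response), Aim2 (-1.62) and Gsdmd (-1.07). None of these calls held with the WT-labelled spread or with the BMDM libraries numbered 3 in the fit. They were also lost when any CRE-labelled library was left out. The WT-labelled response was called different between cultures by the same kind of term for 4 genes (2.61% of all genes tested). These were Il18bp (-2.69, BMDC response minus BMDM response), Aim2 (-1.66), Casp1 (-1.36) and Gsdmd (-0.98). Only the call of Aim2 held whichever WT-labelled library was left out. None held with the BMDM libraries numbered 3 in the fit.

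The BMDM libraries numbered 3 were left out of the comparisons reported and entered only an alternative fit. Among the 7 genes with at least 10 counts in each of them, 3 had an FPKM ratio of DMXAA to control of at least 1.5 in both labels. The ratio was 2.52 in the WT label and 1.95 in the CRE label for Il1a, 1.85 and 2.45 for Casp4, and 1.89 and 1.64 for Aim2. For the other 4 genes it was 1.23 and 2.30 (Il1rn), 1.41 and 1.52 (Il18), 1.24 and 1.54 (Gsdmd), and 1.04 and 0.792 (Il18bp, lower under DMXAA in the CRE label). Each ratio rests on 1 library per condition and was not tested.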

How the results depend on the processing

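No called value changed sign under any alternative run. Of 1367 single values recomputed, 1226 kept their side of the threshold, 38 passed it newly and 103 no longer did. Among the 1226, 72 changed sign without being called in either fit, the largest at a size of 1.28 on the log2 scale. Counts below are of the 10 genes called.

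With all BMDM libraries, number 3 included, 0 were called in the WT response, the CRE response, CRE against WT under DMXAA, the BMDM interaction and the interaction between cultures (3, 2, 1, 0 and 0 at an unadjusted p under 0.05), and 1 between cultures at rest (8.51% of all genes called, against 0% in the others). The WT-labelled spread gave 1 in the BMDM CRE response and 0 in CRE against WT under DMXAA and in the interaction. In BMDM controls DESeq2 called 1 (1.09% of all genes called) and no filter 2 (2.96%). In the BMDM interaction DESeq2 and no filter gave 6 (10.3% and 5.68% of all genes called), the replicate block 5 (3.89%), and the replicate block within genotype 5 (14.7%). The causes were not tested. Both blocks added Casp1 and Nlrp3 in the BMDM interaction. The fit without both WT-labelled libraries numbered 2 took its spread from the CRE label alone, so its counts are not given. Beside Nlrp3 in BMDCs, the block changed 2 other calls. It called Il1rn in CRE against WT BMDMs under DMXAA (-2.81, adjusted p 0.0471) and lost Aim2 between cultures (0.58, adjusted p 0.0734), where numbers do not pair the libraries.

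Leaving out 1 library at a time gave 8 to 9 (BMDC WT response), 6 to 9 (BMDC CRE response), 0 (the other BMDC comparisons), 7 to 8 (BMDM WT response), 1 to 4 (BMDM CRE response), 3 to 6 (CRE against WT under DMXAA), 0 to 3 (control), 0 to 6 (interaction), 3 to 4 (between cultures) and 1 to 4 (interaction between cultures). In BMDMs the lone library left is assumed to vary like the other groups. Low counts limit Il1a and Il1b in BMDMs and Il18 in BMDCs, and the close WT-labelled and CRE-labelled BMDC pairs limit that comparison.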
